A study of Mus musculus with 6 samples.

Results

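The genes described here encode 2 families of ubiquitin ligases, the RING finger proteins (Rnf) and the tripartite motif proteins (Trim), as measured in regulatory T cells (Treg) of the mouse. Every array probe was taken whose platform annotation symbol begins with Rnf or Trim followed by a digit, which gave 269 probes of 136 genes among 34885 probes of 19057 genes with 1 symbol. The Rnf family held 156 probes of 75 genes and the Trim family 113 probes of 61 genes. Members were chosen by symbol alone, with no measured value, but the families were put forward with the differences between the groups already known, so all counts below are descriptions, set beside the share over all genes tested.

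Total RNA was measured on Illumina bead arrays in 3 samples from the colon lamina propria (cLP Treg) and in 3 from mesenteric lymph nodes (here MLN Treg). All 6 samples came from C57BL/6 mice in the steady state with the genotype labelled Foxp3gfp, and were sorted as positive for T cell receptor β, CD4 and Foxp3. The sources used here do not give the age, the sex or the number of animals behind a sample. The question put by the comparison is which transcripts set colonic Treg apart from Treg of a gut-draining lymph node. The labels do not state that replicates were separate animals, and the p-values therefore cover the spread among these samples alone, which may be technical.

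Ubiquitin ligases bring a ubiquitin-conjugating enzyme to a chosen protein, which is thereby marked for degradation or given a new signalling role. Rnf proteins carry a RING zinc-binding domain, the part that binds the conjugating enzyme. Most Trim proteins carry a RING followed by B-box zinc fingers and a coiled coil, and many are induced by interferon and act in antiviral defence. In T cells, ligases of these and other families set thresholds of receptor signalling and control sensors of foreign nucleic acid.

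On each array 32.68% to 35.43% of all probes were detected, with a signal over background of 3.33 to 4.1 in the MLN samples and 2.61 to 3.18 in the cLP samples. The 6 T cell and Treg markers were detected on all 6 arrays. Of the genes behind the sort, Foxp3 differed by -0.01 ± 0.24 and Cd4 by -0.07 ± 0.23, and Cd3e of the T cell receptor complex by -0.60 ± 0.25, without passing. The Cd4 probe was dim, with log2 means of 6.86 in MLN and 6.79 in cLP Treg, where the lowest detected values by array were 5.49 to 5.67. Of other Treg markers Ctla4 (1.04 ± 0.20) and Ikzf2 (2.23 ± 0.59) were higher and Il2ra (-1.66 ± 0.36) was lower in cLP Treg (limma, adjusted p = 0.00721, 0.0249 and 0.0116), where the call of Ikzf2 was lost without MLN sample 1 or 3 (adjusted p = 0.0896 and 0.0856). Markers of other cell types moved with the groups. Of 6 stromal and endothelial markers 4 were tested and 3 were higher in cLP Treg, and Col1a1 and Cdh5 were detected on no array. Acta2 was at least 34.4-fold and Col3a1 at least 6.05-fold higher, both detected on no MLN array, and Igfbp7 was 10.5-fold higher. Pecam1 did not pass (-0.11 ± 0.30). The summed normalised intensity of the 4 was 742 to 1090 in the MLN samples, most of it Pecam1, and 3040 to 4550 in the cLP samples. Of 4 mast and innate lymphoid markers on the array 2 were tested and both were higher (69.2 to 317 against 686 to 2250), with Cpa3 and Mcpt1 detected on no array. Both tested plasma cell markers, of 3 on the array, were higher (2500 to 2530 against 5050 to 5150), with Sdc1 detected on no array. Most of these sums was Xbp1 (1.02 ± 0.19), while Jchain was detected on no MLN array and was at least 2.14-fold higher. Macrophage and dendritic cell markers summed to 126 to 217 and 80.3 to 106 over 2 tested of 4, with Itgax detected on no array, and epithelial markers to 284 to 399 and 172 to 712 over 2 tested of 5, with Vil1 detected on no array. The 2 epithelial markers went opposite ways, Krt8 by 1.64 ± 0.55 and Epcam by -0.71 ± 0.50, without passing (limma, adjusted p = 0.055 and 0.327). Every cLP value of Krt8 lay above every MLN value. Ms4a1 of B cells and Cd8b1 of CD8 T cells differed by -0.40 and -0.78 without passing the test, and Cd8a was detected on no array. Cd8b1 was detected on all 6 arrays, at 4640 to 5670 in the MLN samples and 2430 to 4130 in the cLP samples. Every cLP value of Cd8b1 lay below every MLN value. The part of other cell types in the differences below was not tested.

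More of the Rnf than of the Trim family was detected. A probe was called detected on an array where its detection p was under 0.05. Of the 156 Rnf probes 52 were detected on all 6 arrays, 47 on 1 to 5 and 57 on none, and of the 113 Trim probes 27, 28 and 58. By array, 73 to 79 Rnf probes were detected in the MLN samples and 77 to 84 in the cLP samples, and 37 to 40 and 39 to 46 Trim probes. A gene was tested where a probe was detected on at least 3 of the 6 arrays, which held for 56 of 75 Rnf genes (74.7%) and 28 of 61 Trim genes (45.9%), beside 48.1% of all named genes. A probe detected on all 3 cLP arrays and no MLN array was seen 7 times among Rnf and 1 time among Trim probes, and the opposite 1 time and 0 times, where 448 and 359 of all 34885 named probes did so.

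**Figure D1:**
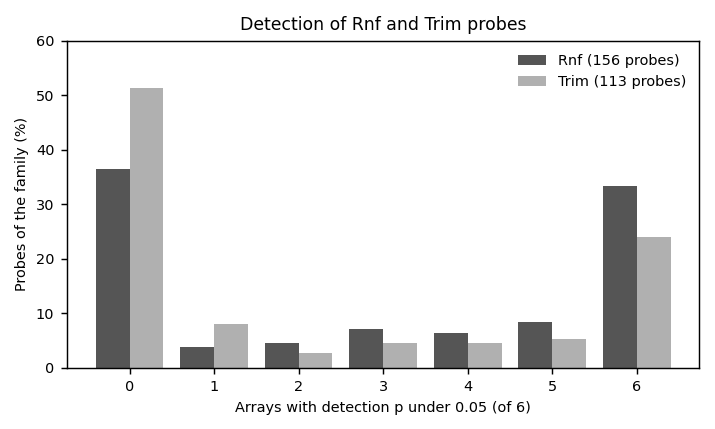
Share of the probes of each family (vertical axis, %) by the number of arrays on which a probe was detected (horizontal axis, 0 to 6 arrays). Probes detected on no array make up 36.5% of Rnf and 51.3% of Trim probes, and those on all 6 arrays 33.3% and 23.9%.

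No probe of 14 Rnf genes was detected on any array. They included Rnf128, also called GRAIL, a ligase known for its part in T cell anergy, the membrane ligase Rnf149, and Rnf144b. A further 5 Rnf genes (Rnf138rt1, Rnf183, Rnf207, Rnf224 and Rnf225) were detected on 1 or 2 arrays only. Among Trim genes 27 were detected on no array, among them the muscle ligase Trim54 and the interferon-linked Trim6, Trim12c, Trim14, Trim30b and Trim30d. Trim13, Trim24, Trim31, Trim44, Trim63 and Trim72 were detected on 1 or 2 arrays. No level in either group is given for these members. Rnf11 and Rnf103 also have probes detected on no array beside probes detected on all 6. A low transcript therefore cannot be told apart from a probe that does not report its gene.

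Both families held members that differed strongly between the tissues. Of 56 Rnf genes tested, 6 were higher in cLP Treg at an adjusted p under 0.05 and 9 were lower (limma), which is 10.7% and 16.1% of the family beside 12.1% and 20.3% of all 9157 genes tested (32.4% in either direction). Of 28 Trim genes 1 was higher and 9 were lower, or 3.57% and 32.1%. The median of the log2 difference (cLP Treg minus MLN Treg) was -0.03 for Rnf genes and -0.54 for Trim genes, beside -0.21 for all genes. The fitted difference reached 2-fold in 6 Rnf genes that were higher and 8 that were lower, and in 1 and 8 Trim genes, where 10.4% and 16.9% of all genes passed in this way. For Rnf182 and Rnf43 among them one group was not above background, and only bounds of 1.49-fold and 1.59-fold are shown. Of the 6 higher Rnf genes 4 had a reported probe detected on cLP arrays only, so they entered the test through the group in which they were high, as 1 lower Rnf gene did through the MLN arrays.

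The scaling of the arrays moved these values. With median scaling the median over all genes was -0.51, in the authors' deposited values -0.30, and with the median difference set to 0 it was 0. Relative to that median, the Rnf median stood 0.18 above in the quantile-normalised values, 0.20 above with median scaling and 0.13 above in the deposited values. The Trim median stood 0.33, 0.19 and 0.22 below (differences of -0.326, -0.185 and -0.215). With the mean of the detected probes the Rnf median stood 0.057 above and without MLN sample 1 0.087 above that of all genes, and without MLN sample 3 the Trim difference was -0.208. Without background correction the Trim difference was -0.142. Both were smallest without a detection filter, where the Rnf median stood 0.026 above and the Trim difference was -0.052. The Trim median itself was negative under each of these scalings, while the Rnf median was -0.31, -0.17 and 0.18 under median scaling, in the deposited values and with the median difference set to 0. The 6 higher and 9 lower Rnf genes became 6 and 13 with median scaling, 6 and 12 in the deposited values and 9 and 6 with the median difference set to 0, so that higher genes made up 40%, 31.6%, 33.3% and 60% of the Rnf calls. Over all genes they made up 37.3%, 21.5%, 24.1% and 50.3%.

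**Figure D2:**
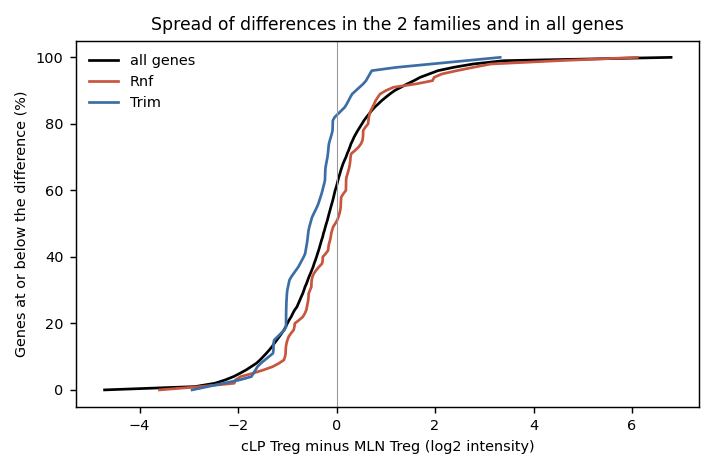
Cumulative share of genes (vertical axis, %) at or below a difference between cLP and MLN Treg (horizontal axis, log2 intensity) for 56 Rnf genes, 28 Trim genes and all 9157 genes tested. The Trim curve lies left of that for all genes around the median (-0.54 against -0.21). The Rnf curve ends at 6.11, the fitted difference of Rnf125, whose reported probe was not detected on the MLN arrays.

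**Figure D3:**
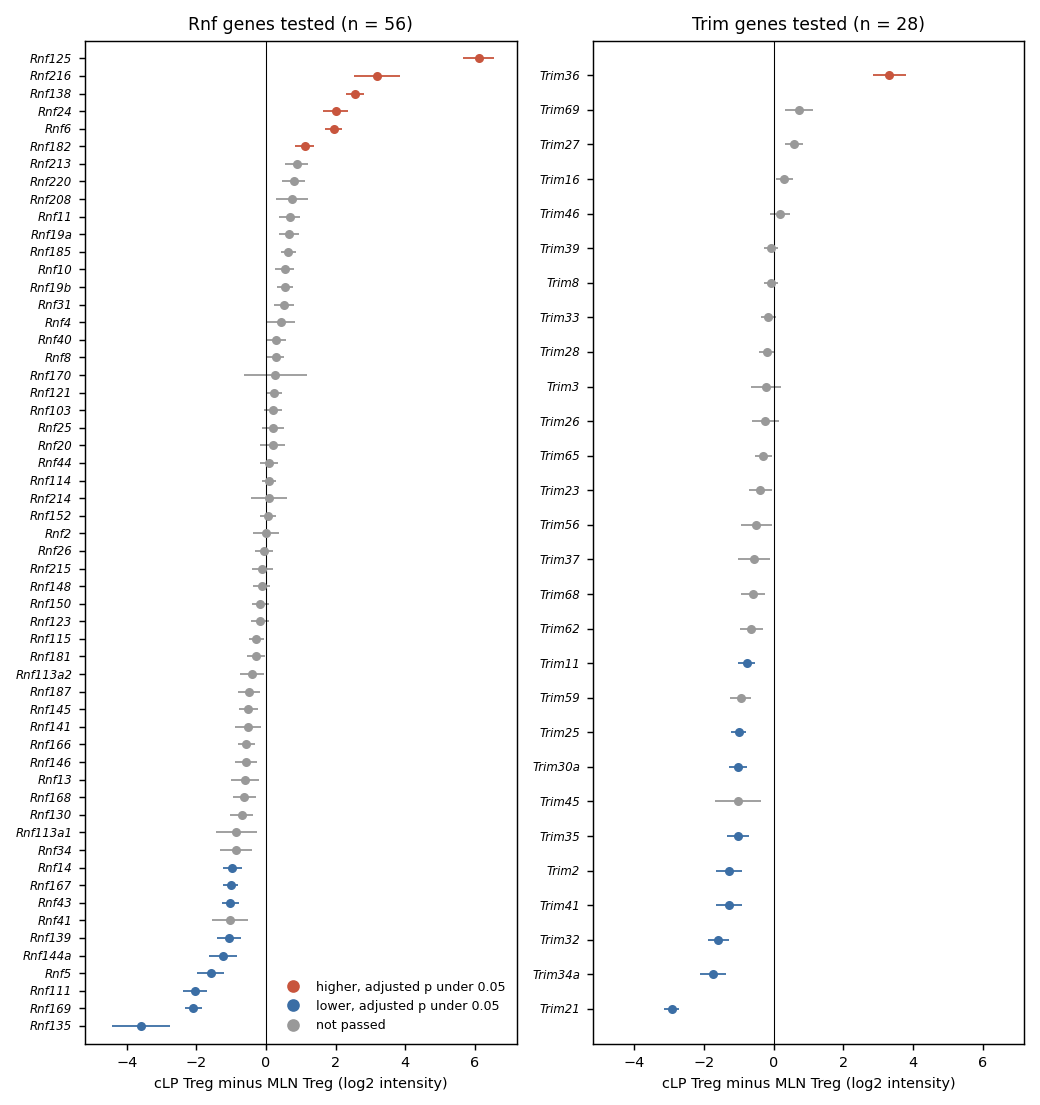
Difference between cLP and MLN Treg (horizontal axis, log2 intensity, point with its standard error) of each Rnf and Trim gene tested, coloured where the adjusted p was under 0.05. Among genes whose reported probe was detected in both groups Trim36 lies at 3.32, with detection on 1 MLN array only, and Rnf138 at 2.55. At the other end lie Rnf135 at -3.60 and Trim21 at -2.93. The points of Rnf125, Rnf216, Rnf24, Rnf182 and Rnf43 are fitted against a group in which the reported probe was not detected.

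Rnf125 stood at the top of the family. It belongs to a small group of related ligases with Rnf114, Rnf138 and Rnf166, in which a RING is followed by further zinc fingers and a ubiquitin-binding motif, and it is known for marking the viral RNA sensor RIG-I for degradation and as a RING protein of T cell activation. Its log2 intensity (probe ILMN_2917338) was 4.82, 4.79 and 4.86 in MLN and 11.72, 11.18 and 9.89 in cLP Treg, named here and below in the order of samples 1 to 3. This probe was detected on no MLN array, and by it the cLP values were at least 41-fold higher (limma, adjusted p = 0.000194). The other probes of Rnf125, detected on 1 and 2 MLN arrays, also rose, by fitted differences of 4.67 ± 0.49 and 2.37 ± 0.29 (adjusted p over all 16215 probes = 0.000778 and 0.0013).

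Rnf138, a ligase known for its work at DNA double-strand breaks, rose 5.87-fold. Its values were 6.57, 6.19 and 6.60 in MLN and 8.62, 9.18 and 9.22 in cLP Treg (difference 2.55 ± 0.26, adjusted p = 0.00065), so that the groups lay well apart. Of its other tested probes 1 was detected on all 6 arrays and rose by 1.36 ± 0.31 (adjusted p over all probes = 0.0151). The other 2 were detected on all 3 cLP arrays and no MLN array, and so entered the test through the group in which they were high. Rnf125 and Rnf138 are direct neighbours in the genome, with 0 protein-coding genes between them in the RefSeq order of GRCm38.p6. The genes on either side, Trappc8 and Mep1b, had differences of -0.25 ± 0.24 and -0.07 ± 0.22 and did not pass (adjusted p = 0.466 and 0.837). The other 2 members of the group did not pass. Rnf114, a ubiquitin-binding ligase, gave 6.06, 6.10 and 5.90 in MLN and 6.08, 6.15 and 6.10 in cLP Treg (difference 0.09 ± 0.20, adjusted p = 0.779). Rnf166 gave 10.83, 10.80 and 10.78 in MLN and 9.82, 10.38 and 10.50 in cLP Treg and was lower in every cLP sample (difference -0.57 ± 0.25, adjusted p = 0.119), and it was past the threshold under median scaling (-1.04, adjusted p = 0.0165) and when the deposited values were used (-0.90, adjusted p = 0.0201).

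Ligases of the RING-between-RING type, which pass ubiquitin through a cysteine of their own, moved in both directions, with 1 of 6 tested higher and 2 lower, beside 12.1% and 20.3% of all genes. Rnf216, known for degrading Toll-like receptors and their adaptors, was detected on no MLN array and on all 3 cLP arrays. Its values were 4.68, 4.64 and 4.87 in MLN and 9.30, 6.35 and 8.11 in cLP Treg, at least 5.1-fold higher in cLP Treg (adjusted p = 0.00958). cLP sample 2 lay closest to the MLN values, and of its other 4 probes none was detected on more than 2 arrays. Rnf14, a coactivator of androgen and Wnt-dependent transcription, fell 1.95-fold with values of 11.10, 10.99 and 11.62 in MLN and 10.38, 10 and 10.44 in cLP Treg (adjusted p = 0.0261). Rnf144a, a ligase of the DNA damage response, fell 2.37-fold with values of 8.19, 7.67 and 8.60 in MLN and 6.22, 6.91 and 7.60 in cLP Treg (adjusted p = 0.0482). Both lie close to the threshold: the call of Rnf14 ended without MLN sample 1 or 3 or cLP sample 2 (adjusted p = 0.0668, 0.0799 and 0.0732), and that of Rnf144a ended without any MLN sample (adjusted p = 0.127, 0.0586 and 0.151 without samples 1, 2 and 3) and without cLP sample 1 or 2 (0.108 and 0.099).

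Rnf31, also called HOIP, is the catalytic subunit of the complex that builds linear ubiquitin chains in NF-kB signalling. It gave 8.19, 8.52 and 8.25 in MLN and 8.91, 8.37 and 9.24 in cLP Treg (difference 0.52 ± 0.28, adjusted p = 0.195), with overlapping groups. Its partners in the complex, Rbck1 and Sharpin, differed by -0.50 ± 0.22 and -0.25 ± 0.20, and none of 7 tested genes of linear chain signalling passed (limma, 1 with an unadjusted p under 0.05). Rnf19a gave 11.76, 12.11 and 12.02 in MLN and 12.97, 12.07 and 12.81 in cLP Treg (difference 0.65 ± 0.29, adjusted p = 0.127), which passed without cLP sample 2 (0.92, adjusted p = 0.0355). Rnf19b, a ligase of cytotoxic lymphocytes, gave 8.72, 8.71 and 8.68 in MLN and 9.50, 8.95 and 9.27 in cLP Treg (difference 0.54 ± 0.23, adjusted p = 0.108). It passed with the median difference set to 0 (0.75, adjusted p = 0.0421), but a second probe gave -0.92 ± 0.65, and with the mean of both probes its sign turned (-0.19, adjusted p = 0.723).

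All 8 genes listed as nuclear ligases of chromatin and DNA repair were tested. Of these 2 were lower and 0 higher (limma, 0 higher also at an unadjusted p under 0.05), near the 20.3% lower over all genes. Rnf138, which was higher, and Rnf144a, which was lower, also act in the response to DNA damage but were counted in the groups above. Rnf169, which binds ubiquitylated chromatin at DNA breaks, fell 4.24-fold with values of 9.90, 9.39 and 9.38 in MLN and 7.56, 7.33 and 7.52 in cLP Treg (adjusted p = 0.00095). Rnf111, also called Arkadia, which strengthens transforming growth factor β signalling by degrading its repressors, fell 4.11-fold with values of 7.93, 7.31 and 8.14 in MLN and 5.37, 5.48 and 6.41 in cLP Treg (adjusted p = 0.00516). It was detected on 1 cLP array, and a second probe near background gave 0.36 ± 0.25 and did not pass. With the mean of both probes the difference of Rnf111 was -0.84 and no longer passed (adjusted p = 0.0525).

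The other 6 genes of this nuclear list did not pass. Rnf2, the catalytic Ring1B subunit of Polycomb complexes, gave 8.91, 8.79 and 9.14 in MLN and 9.58, 9.13 and 8.16 in cLP Treg (difference 0.01 ± 0.37, adjusted p = 0.987). Rnf20 and Rnf40 together ubiquitylate histone H2B. Rnf20 gave 10.34, 9.74 and 10.52 in MLN and 9.94, 11.02 and 10.20 in cLP Treg (difference 0.19 ± 0.35), and Rnf40 gave 10.22, 11.05 and 10.58 in MLN and 10.91, 10.67 and 11.14 in cLP Treg (difference 0.29 ± 0.28). The groups of Rnf2, Rnf20 and Rnf40 overlapped, with cLP sample 3 lowest in Rnf2. Rnf8 and Rnf168 act in sequence at DNA breaks. Rnf8 gave 10.02, 10.14 and 9.93 in MLN and 10.08, 10.10 and 10.74 in cLP Treg (difference 0.28 ± 0.25), and Rnf168 gave 6.96, 6.10 and 6.74 in MLN and 5.57, 6.40 and 5.97 in cLP Treg (difference -0.62 ± 0.32). Rnf4, a ligase that reads SUMO chains, gave 8.78, 8.14 and 9.26 in MLN and 8.51, 9.30 and 9.66 in cLP Treg (difference 0.43 ± 0.39). The adjusted p of these 5 genes other than Rnf2 ran from 0.181 to 0.721.

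Among membrane-bound ligases of the protease-associated type, which sit in endosomes, lysosomes and the cell surface, 2 of 7 tested were lower and 0 higher, and 0 were higher also at an unadjusted p under 0.05 (limma), beside 20.3% lower and 12.1% higher over all genes. Rnf167, an endosomal and lysosomal ligase, fell 2.01-fold with values of 10.56, 10.72 and 10.31 in MLN and 9.62, 9.54 and 9.41 in cLP Treg (adjusted p = 0.0113), and 3 of its 4 other tested probes also passed in this direction. Rnf43, which removes Wnt receptors from the cell surface, was detected on all 3 MLN arrays and no cLP array. It gave 6.49, 6.26 and 5.81 in MLN and 5.23, 5.07 and 5.16 in cLP Treg, at least 1.59-fold lower in cLP Treg (adjusted p = 0.0165). Leaving out MLN sample 1 or 2 ended this call (adjusted p = 0.0719 and 0.0595). Rnf13 gave 7.39, 6.77 and 7.27 in MLN and 7.41, 6.08 and 6.14 in cLP Treg (difference -0.60 ± 0.39, adjusted p = 0.293). Rnf130 gave 9.48, 9.95 and 9.47 in MLN and 9.50, 8.36 and 8.96 in cLP Treg (difference -0.69 ± 0.33, adjusted p = 0.15). Neither passed, and cLP sample 1 lay among or above the MLN values in both. Rnf13 passed without cLP sample 1 (-1.06, adjusted p = 0.0308), and Rnf130 under median scaling (-1.17, adjusted p = 0.0181) and from the values deposited by the authors (-0.94, adjusted p = 0.0116).

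Of 10 tested ligases of the endoplasmic reticulum and other membranes 1 was higher and 2 were lower, beside 12.1% and 20.3% of all genes. Rnf24, a membrane-anchored ligase, was detected on no MLN array and gave 4.70, 4.69 and 4.81 in MLN and 7.14, 7.13 and 5.92 in cLP Treg, at least 2.24-fold higher in cLP Treg (adjusted p = 0.00544). Rnf5, which clears misfolded proteins from the endoplasmic reticulum and restrains the antiviral adaptors STING and MAVS, fell 3.01-fold with values of 8.53, 8.32 and 8.46 in MLN and 6.46, 6.33 and 7.75 in cLP Treg (adjusted p = 0.0182). cLP sample 3 lay closest to the MLN values. Leaving out MLN sample 1, 2 or 3 or cLP sample 2 ended the call of Rnf5 (adjusted p = 0.0649, 0.0529, 0.0607 and 0.0515). Rnf139, a sterol-sensing ligase also called TRC8, was detected on 2 cLP arrays and gave 6.71, 7.05 and 6.67 in MLN and 5.60, 6.45 and 5.20 in cLP Treg, 2.09-fold lower at the edge of the threshold (adjusted p = 0.0496). Its call was kept in 4 of 15 alternative settings and ended without any 1 MLN sample and without cLP sample 1 or 3 (adjusted p = 0.0998 to 0.15).

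Rnf185, the closest relative of Rnf5 and like it a ligase of protein quality control, gave 10.03, 9.73 and 10.02 in MLN and 10.42, 10.59 and 10.68 in cLP Treg. The groups did not overlap, and the difference of 0.64 ± 0.21 missed the threshold (adjusted p = 0.0545) but passed without background correction (0.59, adjusted p = 0.0241), with an offset of 50 (0.62, adjusted p = 0.0349), without a detection filter (0.64, adjusted p = 0.0285) and with the median difference set to 0 (0.85, adjusted p = 0.022). Rnf145, which controls sterol synthesis, gave 11.53, 11.03 and 11.44 in MLN and 10.40, 10.91 and 11.16 in cLP Treg (difference -0.51 ± 0.28, adjusted p = 0.203). Median scaling (-0.97, adjusted p = 0.0382) and the values deposited by the authors (-0.85, adjusted p = 0.0485) put it past the threshold.

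Rnf135, also called Riplet, attaches the ubiquitin chains that activate RIG-I, and had the largest decrease among Rnf genes. Its values were 10.29, 10.79 and 9.92 in MLN and 8.30, 7.27 and 4.64 in cLP Treg, 12.1-fold lower in cLP Treg (adjusted p = 0.0155). The groups did not overlap, and the cLP values had an SD of 1.89, with cLP sample 3 not above background. A second probe fell by 2.06 ± 0.29, while another, detected on all 6 arrays, gave -0.20 ± 0.21 and did not pass. The call ended without MLN sample 2 (adjusted p = 0.0595), without a detection filter (adjusted p = 0.0669), and where detection on all 6 arrays was required and that probe was reported (-0.20, adjusted p = 0.515).

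Rnf6, a nuclear and cytoplasmic ligase, rose 3.84-fold with values of 9.17, 9.55 and 9.67 in MLN and 11.62, 11.51 and 11.09 in cLP Treg (adjusted p = 0.00164), tight in both groups. Its second probe gave 0.02 ± 0.34, so the mean of both probes was 0.98 (adjusted p = 0.0124). Rnf182 was detected on no MLN array and gave 4.91, 5.22 and 4.97 in MLN and 6.55, 5.64 and 6.25 in cLP Treg, at least 1.49-fold higher (adjusted p = 0.0213). The call was lost when MLN sample 1 or 3 or cLP sample 1 was left out (adjusted p = 0.0805, 0.0708 and 0.0509), without background correction (adjusted p = 0.0523) and with the replicate number as a block (adjusted p = 0.0522).

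The 41 Rnf genes that did not pass had differences of -1.04 to 0.89, 22 above and 19 below 0, with standard errors of 0.20 to 0.90. In 35 of them the groups overlapped, in 4 every cLP value lay above every MLN value and in 2 below. Over the whole family the cLP values lay wholly above in 10 of 56 genes and wholly below in 11, where 16.8% and 30.1% of all genes did so. The least precise member was Rnf170, with a difference of 0.26 ± 0.90. Rnf123 did not pass by its reported probe (-0.17 ± 0.26). A second probe of Rnf123, detected on all 6 arrays, was lower (-1.17 ± 0.30, limma, adjusted p over all probes = 0.0234). In 41 of 56 Rnf genes, and in 6322 of all 9157, the SD among cLP samples was larger than among MLN samples, with medians of 0.43 and 0.26 on the log2 scale. Over all genes these medians were 0.38 and 0.26.

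**Figure D4:**
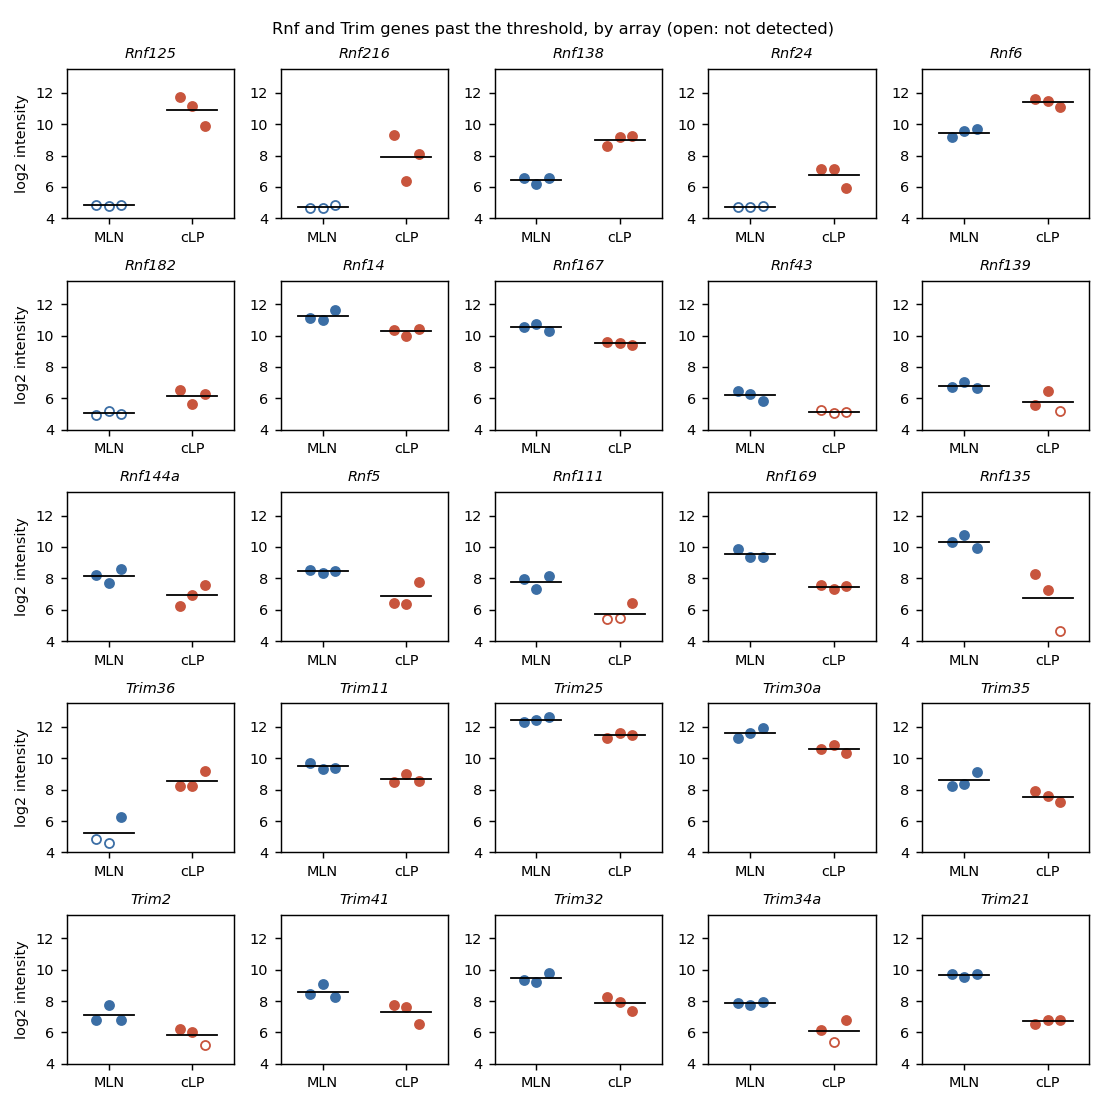
Log2 intensity (vertical axis) of each of the 15 Rnf and 10 Trim genes past the threshold on the 3 MLN and 3 cLP arrays, with the group mean as a bar and open points where the reported probe was not detected. Rnf125, Rnf216, Rnf24 and Rnf182 are open on all MLN arrays, and Rnf43 on all cLP arrays.

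Of the 9 Trim genes that were lower 7 end in a SPRY domain, which recognises the target protein. Trim36, which was higher, and Trim46 carry a COS box as well as a SPRY domain and were listed apart. Of the 15 other SPRY genes tested 7 were lower and 0 higher (limma, 0 higher also at an unadjusted p under 0.05). Over all genes 20.3% were lower and 12.1% higher. Of the 6 tested members linked to the interferon response 4 were lower and 0 higher, also at an unadjusted p under 0.05, with a median of -1.01 beside -0.21 for all genes. These 4, Trim21, Trim25, Trim30a and Trim34a, are among the 7 lower SPRY genes and were counted there too. In a list of 19 tested interferon response genes outside the family, 10 were lower and 0 higher at the threshold and unadjusted, with a median of -1.02. The same 20.3% and 12.1% of all genes stand beside both counts. The list includes Usp18 (-3.47 ± 0.22), which removes the ubiquitin-like protein ISG15, and the antiviral gene Ifit2 (-2.81 ± 0.37). That interferon response genes were lower in cLP Treg was known when the lists were drawn up. In bulk samples fewer cells of a type and less RNA per cell cannot be told apart.

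The promoter windows of 3 of these genes and of Trim2, all lower in cLP Treg, are shown. They carry the core of the interferon-stimulated response element, to which interferon-activated factors bind. Each runs from 250 bases before to 50 after a RefSeq gene start (GRCm38.p6), 5′ to 3′ along the gene, with the motif searched, 2 copies of GAAA with any 2 bases between them, read on either strand, in capitals.
Trim21 (chr7:102565433-102565732, - strand): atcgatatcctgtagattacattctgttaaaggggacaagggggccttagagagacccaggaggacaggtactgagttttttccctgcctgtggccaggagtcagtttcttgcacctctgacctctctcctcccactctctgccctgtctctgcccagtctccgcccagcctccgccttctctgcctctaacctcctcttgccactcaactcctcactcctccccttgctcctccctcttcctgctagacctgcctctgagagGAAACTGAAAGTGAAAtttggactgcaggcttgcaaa
Trim34a (chr7:104244207-104244506, + strand): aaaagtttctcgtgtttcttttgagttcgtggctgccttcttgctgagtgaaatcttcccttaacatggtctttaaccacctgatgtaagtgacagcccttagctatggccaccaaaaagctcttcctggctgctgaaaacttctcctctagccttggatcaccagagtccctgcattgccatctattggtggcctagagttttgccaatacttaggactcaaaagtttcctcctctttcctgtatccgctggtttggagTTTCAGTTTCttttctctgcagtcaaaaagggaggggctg
Trim30a (chr7:104465144-104465443, - strand): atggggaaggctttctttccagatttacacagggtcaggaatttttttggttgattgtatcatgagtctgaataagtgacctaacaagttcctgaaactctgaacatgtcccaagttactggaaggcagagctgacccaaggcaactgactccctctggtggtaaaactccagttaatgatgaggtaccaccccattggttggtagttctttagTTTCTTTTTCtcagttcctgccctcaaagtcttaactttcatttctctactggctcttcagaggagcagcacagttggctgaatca
Trim2 (chr3:84212789-84213088, - strand): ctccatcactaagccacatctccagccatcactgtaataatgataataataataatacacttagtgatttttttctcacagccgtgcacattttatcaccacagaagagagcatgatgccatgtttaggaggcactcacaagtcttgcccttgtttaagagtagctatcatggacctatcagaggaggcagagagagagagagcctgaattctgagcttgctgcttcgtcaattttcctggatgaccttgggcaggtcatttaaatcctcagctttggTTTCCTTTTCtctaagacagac
The window of Trim21 holds 2 overlapping copies, the first starting 14 bases after the gene start, and those of Trim34a and Trim2 hold 1 copy starting 11 and 29 bases after it. Trim30a has 2 annotated starts, each with 1 copy, and the copy in the window shown starts 36 bases before the start. For Trim2 only 1 of 5 windows holds a copy.

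Promoter windows were given for 108 of the 136 members. The motif lay in a window of 4 of 7 Trim genes that were lower, of 1 of 13 that did not pass, and of 7 of 48 on the array, beside 3.99% of all genes with a window. Among Rnf genes it lay in 1 of 4 that were higher, 0 of 6 that were lower and 3 of 35 that did not pass. Trim26, which did not pass, holds 2 copies, and Trim25, which fell, has none in its window. TGANTCA, the site of AP-1, lay in a window of 2 of 7 lower Trim genes and 6 of 60 Rnf genes, beside 8.97% of all genes. A match to these letters on either strand is a description of the window only.

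Trim21, the cytosolic antibody receptor that directs antibody-bound particles to the proteasome, had the largest decrease of the family. Its values were 9.71, 9.54 and 9.73 in MLN and 6.57, 6.82 and 6.79 in cLP Treg, 7.64-fold lower in cLP Treg (difference -2.93 ± 0.21, adjusted p = 0.000194). Both groups were tight and lay far apart. A second probe fell by 1.10 ± 0.24, and another, near background, gave 0.23 ± 0.21 and did not pass, so that the mean of the probes was -1.27 (adjusted p = 0.00309). Trim34a fell 3.35-fold with values of 7.90, 7.74 and 7.91 in MLN and 6.14, 5.37 and 6.81 in cLP Treg (adjusted p = 0.0102), not detected in cLP sample 2, and its second probe fell by 1.84 ± 0.36.

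Trim30a, an interferon-induced gene reported in mice to restrain NF-kB signalling from Toll-like receptors, fell 2.03-fold with values of 11.31, 11.64 and 11.91 in MLN and 10.62, 10.83 and 10.35 in cLP Treg (adjusted p = 0.0192). It was no longer past the threshold when MLN sample 2 or 3 was left out (adjusted p = 0.0647 and 0.0665) and with the replicate number as a block (adjusted p = 0.0515). Trim25, which activates RIG-I by ubiquitylation, fell 2.01-fold with values of 12.34, 12.44 and 12.65 in MLN and 11.33, 11.60 and 11.48 in cLP Treg (adjusted p = 0.0106), and its second probe gave -0.90 ± 0.30 without passing over all probes (adjusted p = 0.0571). Trim30a and Trim34a have close copies in the genome, so their probes may also bind transcripts of these relatives. Trim26 gave 11.49, 11.51 and 11.21 in MLN and 10.34, 11.79 and 11.37 in cLP Treg (difference -0.24 ± 0.38, adjusted p = 0.671), with cLP sample 1 below and cLP sample 2 above all MLN values. Trim56, the other interferon-linked member tested, had a difference of -0.50 ± 0.44 (adjusted p = 0.427).

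Further SPRY members fell by less or closer to the threshold. Trim41 fell 2.43-fold with values of 8.43, 9.10 and 8.29 in MLN and 7.78, 7.63 and 6.56 in cLP Treg (adjusted p = 0.0381). Trim35 fell 2.04-fold with values of 8.26, 8.38 and 9.12 in MLN and 7.89, 7.57 and 7.23 in cLP Treg (adjusted p = 0.0378). Trim11 fell 1.71-fold with values of 9.72, 9.32 and 9.41 in MLN and 8.51, 9.03 and 8.59 in cLP Treg (adjusted p = 0.0446). The groups did not overlap in any of the 3. The 3 calls ended without MLN sample 1, 2 or 3, with adjusted p-values of 0.0663 to 0.128 for Trim41, 0.0616 to 0.111 for Trim35 and 0.0848 to 0.165 for Trim11. They also ended for Trim41 and Trim35 without cLP sample 2 (0.0537 and 0.0798), for Trim11 without cLP sample 1 (0.101), and for Trim41, Trim35 and Trim11 without cLP sample 3 (0.0576, 0.0791 and 0.0849). A second probe of Trim35 gave -0.02 ± 0.31.

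Trim27, which acts at endosomes and in the nucleus, gave 7.74, 7.71 and 8.28 in MLN and 8.33, 8.39 and 8.77 in cLP Treg and did not pass, though every cLP value lay above every MLN value (difference 0.58 ± 0.26, adjusted p = 0.123). Trim39, a regulator of the anaphase-promoting complex, gave 12.48, 12.37 and 12.60 in MLN and 12.33, 12.50 and 12.39 in cLP Treg (difference -0.08 ± 0.20, adjusted p = 0.81). The groups of Trim39 overlapped. Trim69 differed by 0.73 ± 0.40 and Trim68 by -0.60 ± 0.35, both without passing.

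Members counted in other classes were few. Of 3 tested with NHL repeats 2 were lower and 0 higher (limma, 0 higher also at an unadjusted p under 0.05), where 20.3% of all genes were lower. Trim32, a ligase best known from muscle, fell 3.01-fold with values of 9.31, 9.21 and 9.82 in MLN and 8.24, 7.95 and 7.39 in cLP Treg (adjusted p = 0.00674), and its second probe fell by 1.46 ± 0.26. Trim2, known for turning over neurofilament protein in neurons, fell 2.43-fold with values of 6.81, 7.77 and 6.77 in MLN and 6.24, 6.05 and 5.22 in cLP Treg (adjusted p = 0.0374), detected on 2 cLP arrays, and this call was lost when MLN sample 1, 2 or 3 or cLP sample 2 or 3 was left out (adjusted p = 0.0604 to 0.116). Trim3 gave a difference of -0.23 ± 0.43 (adjusted p = 0.723).

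Trim36, a microtubule-associated ligase with a COS box, was the 1 Trim gene that was higher. Its values were 4.83, 4.58 and 6.24 in MLN and 8.22, 8.21 and 9.19 in cLP Treg, 10-fold higher in cLP Treg (difference 3.32 ± 0.48, adjusted p = 0.00256). It was detected in MLN sample 3 only among the MLN samples, and its MLN mean is therefore in part background. A second probe was detected on all 3 cLP arrays and no MLN array, and gives no measured size. Trim46, which organises microtubules in axons, differed by 0.18 ± 0.28 and did not pass.

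Trim28, Trim33 and Trim24 belong to the group with a PHD finger and a bromodomain that acts on chromatin. Trim28, the corepressor that silences transposable elements, gave 11.28, 11.55 and 11.19 in MLN and 10.88, 11.30 and 11.30 in cLP Treg (difference -0.18 ± 0.23, adjusted p = 0.592). Trim33, a partner of SMAD proteins, gave 10.31, 10.59 and 10.49 in MLN and 10.31, 10.15 and 10.46 in cLP Treg (difference -0.16 ± 0.21, adjusted p = 0.616), and passed in the authors' deposited values (-0.53, adjusted p = 0.0426). The groups overlapped in both genes, and Trim24 was detected on 1 array and not tested. Trim8, a regulator of STAT3 and NF-kB signalling, gave 10.76, 10.68 and 10.86 in MLN and 10.86, 10.61 and 10.57 in cLP Treg (difference -0.08 ± 0.21, adjusted p = 0.797). Trim59, a membrane protein of the endoplasmic reticulum, gave 11.86, 11.87 and 11.92 in MLN and 11.43, 11.07 and 10.29 in cLP Treg. Every cLP value was below every MLN value, and the difference of -0.95 ± 0.31 fell just short of the threshold (adjusted p = 0.0514), which it passed in 7 of 16 alternative settings, among them median scaling (-1.38, adjusted p = 0.0104), the values deposited by the authors (-1.25, adjusted p = 0.0086) and without cLP sample 1 (adjusted p = 0.0245).

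The 18 Trim genes that did not pass had differences of -1.03 to 0.73, 4 above and 14 below 0, with standard errors of 0.20 to 0.67. In 16 of them the groups overlapped. Over the family the cLP values lay wholly above in 2 of 28 genes and wholly below in 10, where 16.8% and 30.1% of all genes did so.

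Probes of the same gene often differed in size. Of the 15 Rnf genes past the threshold 8 had several tested probes, of which all had 1 sign in 5 genes and all passed the same way in 2 (Rnf125 and Rnf138). Among 7 such Trim genes the probes had 1 sign in 6 and all passed the same way in 3 (Trim32, Trim34a and Trim36). In Rnf125, Rnf138 and Trim36 some of these probes were detected on cLP arrays only. No other probe passed in the opposite direction. Counted in probes and adjusted over all 16215 detected probes, 11 of 86 Rnf probes were higher and 12 lower, and 2 of 43 Trim probes higher and 12 lower, beside 14.5% higher and 17.4% lower over all probes (31.8% in either direction). Rnf139 and Rnf144a, past the threshold over genes, missed it there (adjusted p = 0.0523 and 0.0509).

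**Figure D5:**
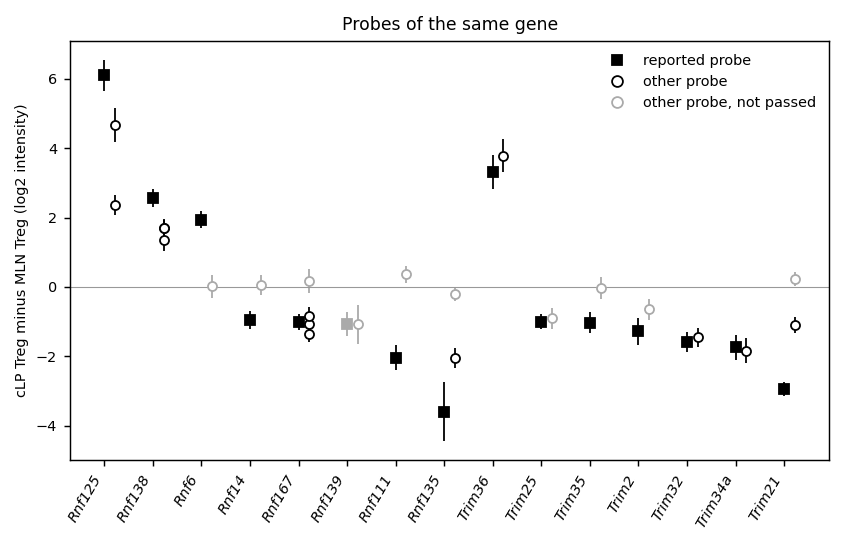
Difference between cLP and MLN Treg (vertical axis, log2 intensity, with its standard error) for every tested probe of the 15 Rnf and Trim genes past the threshold that have several such probes. Grey points, which did not pass over all probes, lie near 0 for Rnf6, Rnf14 and Trim35, while the 3 probes of Rnf125 lie at fitted differences of 6.11, 4.67 and 2.37, the first against MLN arrays without detection.

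Among the ligases of RIG-I, Trim25, which activates it, was lower and Rnf125, which degrades it, was higher. Rnf135, which also activates it, was lower by its reported probe, while its probe detected on all 6 arrays gave -0.20 and the call was lost without MLN sample 2 and without a detection filter. Of 8 tested genes of the RIG-I pathway 5 were lower and 0 higher (limma, 0 higher also at an unadjusted p under 0.05), beside 20.3% and 12.1% of all genes, among them the RNA sensor Ifih1 (-1.52 ± 0.26) and the kinase Ikbke (-1.36 ± 0.22). Ifih1, Ddx58, Dhx58 and Irf7 also belong to the interferon response list counted above.

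The rest of the ubiquitin system moved both ways. Among 38 tested RING ligases with other names 8 were higher and 6 lower, with a median of 0.03. Birc3, an inhibitor of apoptosis in TNF receptor signalling, rose by 1.73 ± 0.29 and Arih1, a ligase that works with cullins, by 1.82 ± 0.30. Traf2, the adaptor of TNF receptors, was detected on no cLP array and was at least 8.22-fold lower, and Dtx1, a Notch target that promotes T cell anergy, differed by -2.81 ± 0.21. Of 18 HECT ligases, which carry ubiquitin on a cysteine, 2 were higher and 8 lower (median -0.67), with Hectd2 at -2.13 ± 0.29, detected on 1 cLP array, and Herc3 at -1.65 ± 0.33. Of 17 cullin-RING genes 3 were higher and 3 lower (median -0.31), with the scaffold Cul5 at -2.55 ± 0.46. Of 20 conjugating enzymes 1 was higher, Ube2z, whose sign turned with the mean of its detected probes (0.75 and -0.24), and 3 were lower (median -0.13), with Ube2d2a at -1.38 ± 0.23 and Ube2l3, which serves RING-between-RING ligases, at -1.31 ± 0.22. Of 6 activating enzymes 1 was higher, Uba6 (1.92 ± 0.28), and 1 lower. Of 18 deubiquitinases of immune signalling 1 was higher, Tnfaip3 or A20, a brake on NF-kB (3.28 ± 0.26), and 4 were lower, among them Otud7b (-1.85 ± 0.39) and Usp18, named above. These shares stand beside 12.1% higher and 20.3% lower over all genes.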

How the data were processed

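Intensities on a linear scale, deposited by the authors without normalisation, came from GenomeStudio 1.6.0, which the submitters' processing notes name. The column that the file headers call a detection p-value rose with intensity (rank correlations of 0.991 or more). These deposited values were therefore taken as a fraction, the share of negative control beads below the probe, and subtracted from 1 to give the detection p. The authors' deposited log2 values equalled the log2 intensity minus that of the array's 75th percentile, with array medians of -0.848 to -0.596, no centring of genes and higher values for more signal. Rows of both tables were matched by value (tolerance 0.1, largest difference 0.035). Of 45281 probes 34885 had 1 symbol in the platform annotation, 18 several and 10378 none, and no member symbol was updated. No sample column was left unmapped (0).

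Background was corrected by normexp through the detection p with an offset of 16, followed by quantile normalisation (limma 3.58.1, R 4.3.3; Python 3.11.15). Genes with a probe at a detection p under 0.05 on at least 3 arrays were tested, by their probe with the highest mean, with lmFit and eBayes and Benjamini-Hochberg adjustment over 9157 genes. For a probe undetected throughout a group, the fold is a bound against the dimmest detected signal. Folds and intensities compare samples for 1 probe, never probes with each other, and the number of arrays limits the precision. On simulated data 12 of 100 genes changed by 1 on the log2 scale and 70 of 100 changed by 2 were called, with 4 false calls among 9157. A far smaller share of genes changed there than the 32.4% called in these data. The recovery therefore does not give the sensitivity of this comparison. Replicate numbers did not pair the samples: same-numbered samples had deviations correlated at -0.164, -0.104 and -0.0106. No batch was fitted, since the sources used here name no chip.

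The members, gene lists and tests were chosen with earlier results of these data known. Values by array are given for the 10 largest increases and decreases past the threshold in each family and for a fixed list of members, other members by range, and partner genes from the largest 3 in each direction of each list. Alternatives changed the background correction, scaling, detection filter, probe per gene, replicate block and samples used. Promoter sequences came from RefSeq (GRCm38.p6), and 24 of the 108 matched members had several windows.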

Additional observations from a re-analysis of the deposited data

How the results depend on the processing

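Calls kept in every alternative in which the gene was tested were 5 of 6 higher Rnf genes (Rnf125, Rnf216, Rnf138, Rnf24 and Rnf6), 2 of 9 lower Rnf genes (Rnf167 and Rnf169), the 1 higher Trim gene (Trim36) and 4 of 9 lower Trim genes (Trim21, Trim25, Trim32 and Trim34a). With detection required on all 6 arrays 42 Rnf and 20 Trim genes were tested, of 6984 genes in all. There 2 Rnf genes were higher and 5 lower, and 0 Trim genes were higher (limma, 1 at an unadjusted p under 0.05) and 8 lower. Over all genes 845 were higher and 1400 lower in that setting. Without a detection filter, where 19057 genes were tested, 5 of 75 Rnf and 5 of 61 Trim genes were lower, beside 1485 of all genes. Higher were 7 Rnf genes and 1 Trim gene, beside 932 of all genes. With the median difference set to 0, 5 of 28 Trim genes were lower, beside 1343 of all 9157 genes. Rnf139, Rnf14, Rnf144a, Trim11, Trim2, Trim35 and Trim41 no longer passed there. Other settings ended single calls: no background correction those of Rnf182, Rnf139, Rnf144a, Rnf43 and Trim2, an offset of 50 that of Rnf139, the authors' deposited values those of Rnf139, Rnf43 and Trim2, no detection filter those of Rnf135, Rnf139, Rnf144a, Rnf5, Trim11, Trim2, Trim35 and Trim41, and the mean of the detected probes those of Rnf111, Rnf139, Rnf14 and Trim35. Counted in probes, 11 Rnf and 2 Trim probes were higher. Leaving out 1 sample at a time gave 5 to 7 higher and 4 to 8 lower Rnf genes and 1 higher and 4 to 9 lower Trim genes, and over all genes 747 to 1172 higher and 1054 to 2040 lower, where the full data gave 1107 and 1861. The lowest counts came without an MLN sample, with 4, 4 and 5 lower Rnf genes and 5, 4 and 4 lower Trim genes without MLN samples 1, 2 and 3. Median scaling gave 831 higher and 3042 lower genes, and the authors' deposited values 881 and 2771. With the replicate number as a block 5 Rnf genes were higher and 9 lower, and 1 and 6 Trim genes, beside 931 and 1509 of all 9157. That block ended the calls of Rnf182, Trim11, Trim30a and Trim35 and changed no other call in the families, and the numbers do not pair the samples.

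Sizes depended on the background correction and on the choice of probe. Without background correction the difference was 1.98 for Trim36, -1.10 for Rnf111 and -0.98 for Trim34a, and in the authors' deposited values 1.84, -1.17 and -1.06, with 1.58 for Rnf138. Both settings compress dim probes by construction. With the mean of the detected probes it was 0.98 for Rnf6, -1.95 for Rnf135 and -1.27 for Trim21, and the conjugating enzyme Ube2z turned from 0.75 to -0.24 (adjusted p = 0.482 in limma). The cause was not tested. Probes near background, among them those of Rnf125, Rnf216, Rnf24, Rnf182 and Rnf43, give bounds only, and a p above the threshold does not show that a member did not differ.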
